A study of Rattus norvegicus with 18 samples.

Results

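The let-7 3p strands are the 3′ arms of the let-7 hairpins, usually called passenger strands. They were chosen by their counts, as every rat let-7 entry with the suffix 3p that had any read in the small RNA libraries of the naive, GFP and NT3 groups. The rule gave 11 of the 753 mature miRNAs listed, and no let-7 3p entry was without a count. A let-7 gene is transcribed into a hairpin that Drosha and Dicer cut into a short duplex. The guide, in this family the 5′ arm, is kept by Argonaute and pairs with target mRNAs through its seed, bases 2 to 8, whereas the passenger strand is mostly degraded. The let-7 guides are known as regulators of developmental timing and differentiation and are abundant in mature neurons. Several guides are made from more than 1 gene, whereas the 3p arms differ in sequence between most genes, so that a 3p read usually names the hairpin it came from.

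The libraries came from short RNA of the dorsal root ganglia (DRG) of cervical segments C6 to C8 in lister hooded rats, with 6 rats in each of 3 groups and 1 library per rat. Naive rats had no operation and no vector. In the bPYX+GFP and bPYX+NT3 groups the corticospinal tract was cut on both sides in the pyramids (bilateral pyramidotomy, bPYX), and ganglia were taken 10 weeks later. The day after injury, the forelimb flexor muscles of 1 side had been injected with an adeno-associated virus, AAV1, in which the general CMV promoter drives EGFP or human prepro-neurotrophin-3 (NT3). The bPYX+GFP rats therefore differ from naive rats by injury and by vector together, and these cannot be told apart. The bPYX+NT3 and bPYX+GFP rats share injury, serotype and promoter and differ by the transgene. Ganglia of the treated side were pooled per rat, and the cut axons belong to cortical neurons, not to the ganglion cells that were sequenced. In such bulk tissue, fewer cells of a type and less RNA per cell cannot be told apart.

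The libraries held 3.88 to 6.92 M miRNA reads (M, 10 to the power of 6), and the deepest was bPYX+GFP replicate 3. Of the sensory neuron markers, miR-182 had a mean of 25160 CPM (counts per M miRNA reads, scaled by TMM) and miR-96-5p 4282 CPM, whereas miR-183-5p was listed at 0 in all 18 libraries. The muscle markers miR-1-3p and miR-133a-3p and the glial marker miR-338-3p were also listed at 0 in all 18, and the glial miR-219a-5p stayed at or under 1.53 CPM. The muscle marker miR-206-3p had 41.5 to 297 CPM, and the blood, smooth muscle, endothelial and myeloid markers all had counts. The muscle list therefore rests on miR-206-3p alone. Whether an entry at 0 in all 18 libraries means that the miRNA or its cell type was absent was not tested.

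RefSeq (rat assembly GRCr8) held the mature sequence of 10 of the 11 3p strands. They are shown because their seeds, in capitals, and their near-identities decide what a 3p count can mean. All lines read 5′ to 3′.
rno-let-7d-3p: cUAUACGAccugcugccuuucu
rno-let-7i-3p: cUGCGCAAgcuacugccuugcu
rno-let-7b-3p: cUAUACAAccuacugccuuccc
rno-let-7e-3p: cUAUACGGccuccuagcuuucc
rno-let-7a-1-3p: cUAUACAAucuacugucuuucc
rno-let-7c-2-3p: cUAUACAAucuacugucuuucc
rno-let-7a-2-3p: cUGUACAGccuccuagcuuucc
rno-let-7f-1-3p: cUAUACAAucuauugccuucc
rno-let-7g-3p: cUGUACAGgccacugccuugc
rno-let-7f-2-3p: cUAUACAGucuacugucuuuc
The remaining member is rno-let-7c-1-3p; the prefix rno, for rat, is left out below.

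The 10 sequences carry 6 different seeds. UAUACAA is shared by let-7a-1-3p, let-7b-3p, let-7c-2-3p and let-7f-1-3p, as well as by miR-98-3p and miR-3596d, and UGUACAG by let-7a-2-3p and let-7g-3p. The seeds of let-7d-3p, let-7e-3p, let-7f-2-3p and let-7i-3p each occur in 1 member. This is unlike the guides, whose 8 let-7 members and miR-98-5p all carry GAGGUAG. Across these 10 sequences, 9 positions hold the same base in every member. let-7a-1-3p and let-7c-2-3p have identical sequences. Their hairpins share an unbroken stretch of 26 bases, uaaCUAUACAAUCUACUGUCUUUCCu with the mature strand in capitals, so a read of that strand cannot be placed at 1 of these genes by its sequence. let-7f-2-3p differs from them by 1 base of the 21 compared, let-7a-2-3p from let-7e-3p by 2 of 22, and let-7b-3p from let-7f-1-3p by 2 of 21. let-7d-3p stands further away, with 4 mismatches to its nearest relative let-7b-3p, and so do let-7g-3p and let-7i-3p, which differ from each other by 4.

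By name and order of genes in GRCr8, let-7a-1, let-7f-1 and let-7d lie together in 1 cluster, let-7b lies beside let-7c-2, and let-7f-2 lies beside miR-98 inside the ubiquitin ligase gene Huwe1. let-7c-1 neighbours miR-99a and, within a wider window, miR-125b-2. let-7a-2 neighbours miR-100, with miR-125b-1 only in the wider window, and let-7e neighbours miR-99b and miR-125a. let-7g, which overlaps Wdr82, and let-7i have no miRNA gene beside them.

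The levels of the 3p strands spanned orders of magnitude and 1 member dominated. let-7d-3p averaged 1611 ± 234 CPM (SD, n = 18) and ranged from 1176 to 1902 CPM. It made up 83.9% ± 2.65 (SD, n = 18) of all let-7 3p reads. let-7i-3p followed at 120 ± 27.0 CPM, let-7c-1-3p at 61.6 ± 7.66, let-7b-3p at 51.2 ± 5.80 and let-7e-3p at 30.9 ± 4.19 CPM. Each of these was above the next in 18 of 18 libraries, and let-7d-3p was 13.4 times let-7i-3p on average. let-7a-1-3p averaged 14.4 ± 3.05 CPM, let-7a-2-3p 8.99 ± 1.64, let-7f-1-3p 8.26 ± 1.45, let-7g-3p 5.87 ± 1.74 and let-7f-2-3p 2.13 ± 0.719 CPM. Among these lower members, let-7a-2-3p and let-7f-1-3p were not separated, the former being higher in 10 of 18 libraries. let-7c-2-3p had 0 to 3 counts in a library and 24 in all, against 1208 for its identical twin let-7a-1-3p.

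**Figure D1:**
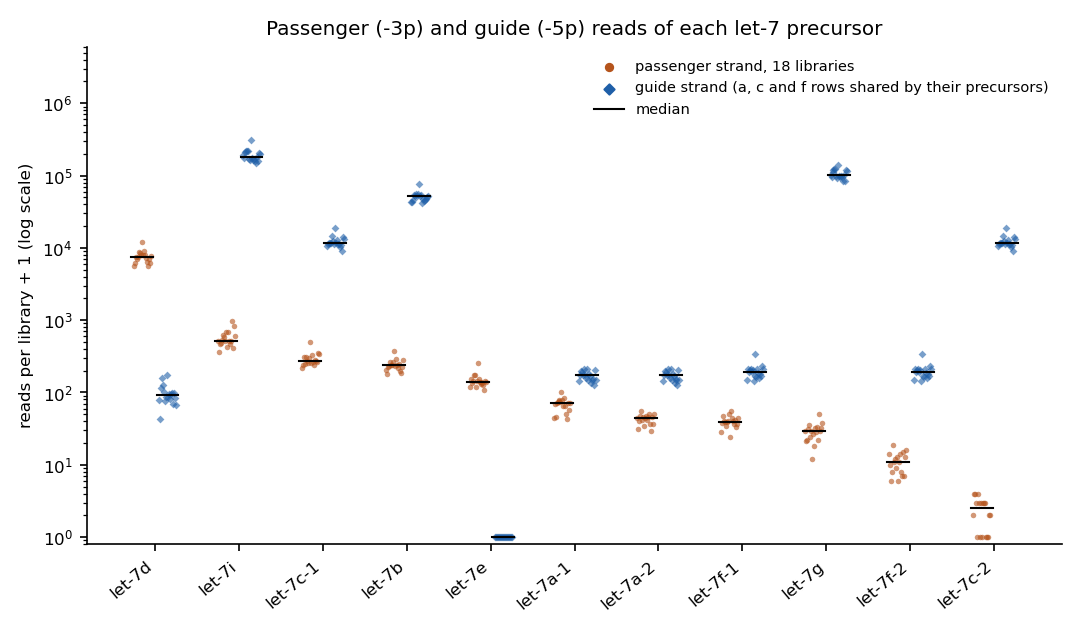
Reads per library plus 1, on a log scale, for the 3p strand (circles) and the 5p strand (diamonds) of each let-7 hairpin, in 18 libraries, with the median as a black line. The a, c and f guides are single entries shared by their hairpins and are drawn at each; let-7d is the hairpin whose 3p reads lie above its 5p reads with 5p reads present, and let-7e-5p lies at 0 throughout.

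The order of the 3p strands did not follow that of the guides. The let-7i guide was the most abundant with 151207 to 315091 reads in a library, followed by let-7g-5p with 84160 to 138799 and let-7b-5p with 41980 to 75563. Per 1000 guide reads, let-7i gave 3.00 ± 0.835 3p reads (SD, n = 18), let-7g 0.262 ± 0.0831, and let-7b 4.00 to 5.72 with a mean of 4.75. let-7c-1-3p had 215 to 491 reads in a library, against 9059 to 19119 of the guide it shares with let-7c-2. Where the guide itself had few reads the ratio was higher, at 255 ± 54.2 per 1000 for the 3p strands of let-7f-1 and let-7f-2 summed and 658 ± 144 for those of let-7a-1 and let-7a-2, of which let-7a-1-3p cannot be told from let-7c-2-3p. let-7d had more 3p than 5p reads, since its 3p strand outnumbered its 5p strand by 84.9 ± 24.3 to 1, with 5652 to 11990 3p reads against 42 to 175 5p reads in a library. The name passenger goes against the counts as deposited for let-7d, and for let-7e. The let-7e 3p strand had 106 to 251 reads while its 5p strand was listed at 0 in all 18 libraries. Both 5p counts are among the low guide counts described next, so they do not settle which strand is kept.

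The let-7d hairpin is given with its 5p strand and then its 3p strand in capitals, since its counts set it apart: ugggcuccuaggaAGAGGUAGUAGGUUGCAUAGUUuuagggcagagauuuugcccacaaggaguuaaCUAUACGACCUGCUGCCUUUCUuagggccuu. The 4 guides with few or no reads, let-7a-5p with 3039 reads in all libraries together, let-7d-5p with 1719, let-7f-5p with 3518 and let-7e-5p with 0, are those for which RefSeq places a further miRNA, miR-3596a to miR-3596d, on the opposite strand. These 4 antisense miRNAs were listed at 0 in all libraries. The guides without one, let-7b-5p, let-7c-5p, let-7g-5p and let-7i-5p, had 218756 to 3448946 reads in all, and none of the 10 3p strands with a RefSeq sequence has an annotated antisense miRNA. The part of this annotation in the low guide counts, and so in the ratio of let-7d and let-7e, was not tested, and the strand setting of the counting is not given in the sources used here.

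For the 3 comparisons, 10 of the 11 members passed the detection filter of more than 10 counts in at least 6 libraries, and let-7c-2-3p did not. edgeR's quasi-likelihood test was run on all 373 miRNAs that passed, with Benjamini-Hochberg adjustment over the 373. No 3p strand reached an adjusted p of 0.05 in any comparison by this test. Across all miRNAs the share that did was 2.41% for bPYX+GFP against naive, 0% for bPYX+NT3 against bPYX+GFP and 0% for bPYX+NT3 against naive. The first share is 9 miRNAs, a number that became 3 to 20 when single libraries were left out, and the last became 0 to 4 miRNAs. At an unadjusted p under 0.05 in the same test, the threshold the study used, 2 of 10 members passed in each comparison. The share of all 373 miRNAs at that criterion was 21.2%, 8.58% and 13.7% in the same order, which is 79, 32 and 51 miRNAs. DESeq2 brought 1, 0 and 0 members under an adjusted p of 0.05, beside 23, 0 and 1 of all 373 miRNAs. A share of 2 in 10 is near the background in the first comparison, and the background would give about 1 member in each of the others, so the values that follow describe single strands.

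**Figure D2:**
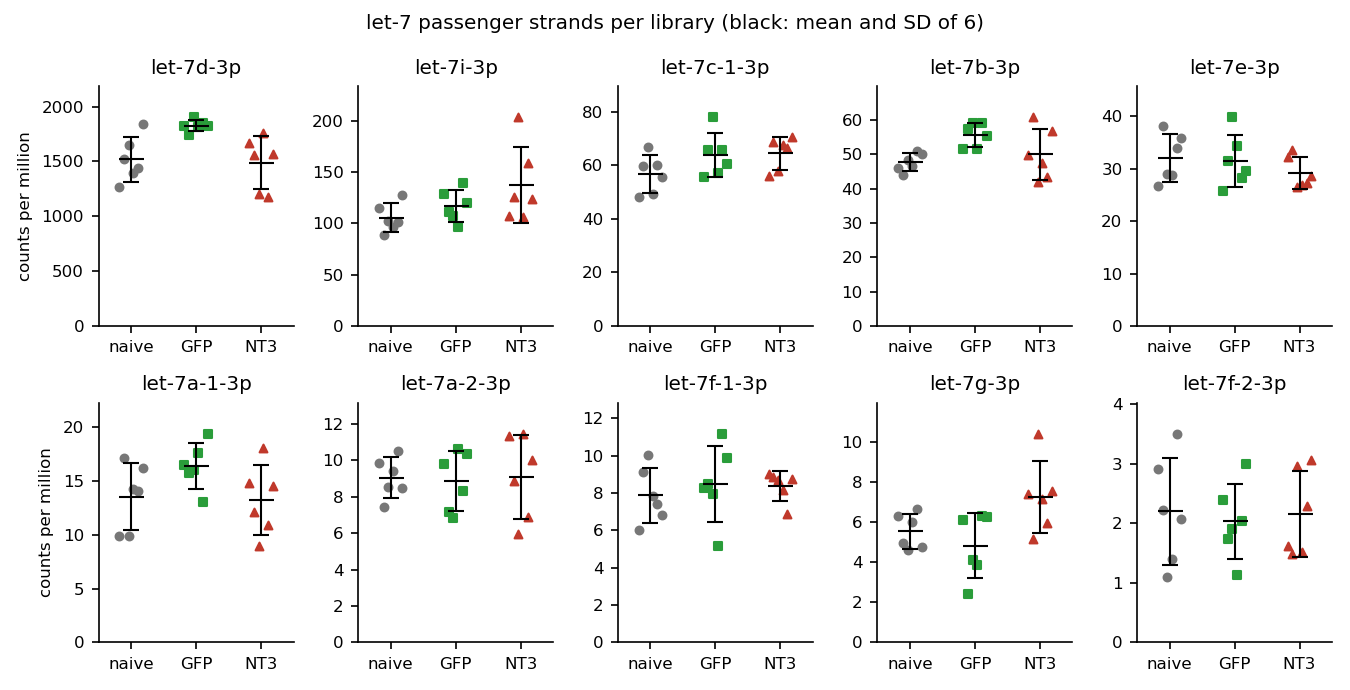
CPM in each library for the 10 members that were tested, by group, with the mean and SD of 6 libraries in black and every axis starting at 0. The 6 bPYX+GFP libraries of let-7d-3p lie close together between 1744 and 1902 CPM, and the highest let-7i-3p and let-7g-3p values are in bPYX+NT3 replicate 3.

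The first comparison asks what differs in the ganglia 10 weeks after the injury with a GFP vector. let-7d-3p ranged from 1266 to 1842 CPM in naive ganglia with a median of 1482, and from 1744 to 1902 CPM in bPYX+GFP with a median of 1825. All 6 bPYX+GFP libraries were above the naive mean, and the groups overlapped through naive replicate 6. Of the markers of other cell types, the smooth muscle marker miR-145-5p ranged from 1182 to 2228 CPM in naive ganglia and from 858 to 1201 in bPYX+GFP, and over the 18 libraries its r with let-7d-3p was -0.65, while the smooth muscle sum with miR-143-3p was 41686 to 68813 against 44507 to 59397 CPM. The muscle, blood, endothelial and myeloid sums overlapped between these groups, the muscle sum being miR-206-3p alone. The medians were 90.0 and 105, 375 and 475, 25540 and 24669, and 138 and 149 CPM. The neuronal sum of miR-182 and miR-96-5p ranged from 23640 to 31007 CPM in naive ganglia and from 28964 to 33099 in bPYX+GFP. Over the 18 libraries, r with let-7d-3p was 0.43 for miR-182, 0.53 for miR-96-5p and -0.17 for miR-143-3p. For the muscle, blood and myeloid markers miR-206-3p, miR-451-5p and miR-223-3p it was -0.01, 0.02 and -0.39. Their part in the let-7d-3p values was not tested. The log2 fold change of let-7d-3p was 0.27 ± 0.08 (SE; 95% interval 0.10 to 0.44; edgeR adjusted p = 0.0806). Over the 21 alternatives the adjusted p ranged from 0.0136, without naive replicate 6, where the log2 fold change was 0.33, to 0.163, without naive replicate 1, where it was 0.22. It was under 0.05 in 3 of them, the others being DESeq2 (0.0334) and upper-quartile scaling.

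let-7b-3p ranged from 44.1 to 51.0 CPM in naive ganglia with a median of 47.6, and from 51.6 to 59.1 CPM in bPYX+GFP with a median of 56.4. The groups did not overlap, which held for 1 of the 10 members and for 4.02% of all 373 miRNAs. Per M miRNA reads without TMM scaling they did overlap, with up to 50.5 in naive and from 49.2 in bPYX+GFP. No member's groups were apart in bPYX+NT3 against bPYX+GFP or against naive, where this held for 0% and 1.34% of the 373. The log2 fold change was 0.22 ± 0.08 (95% interval 0.05 to 0.39, edgeR adjusted p = 0.134). The unadjusted criterion was met in 20 of 21 alternatives, and not by the edgeR likelihood ratio test (unadjusted p = 0.0634).

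The other 8 members missed the unadjusted criterion. For let-7a-1-3p the log2 fold change was 0.27 ± 0.15 (edgeR adjusted p = 0.314), for let-7c-1-3p 0.17 ± 0.11 and for let-7i-3p 0.15 ± 0.11. let-7f-1-3p had 0.11 ± 0.17, and let-7e-3p, let-7a-2-3p, let-7f-2-3p and let-7g-3p had values from -0.20 to -0.02. The fold changes of 6 members were positive and of 4 negative, with a median of 0.13 over the 10, beside 0.00 over all 373.

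The 3p strands summed were 1.91 to 2.47% of all let-7 reads in naive ganglia with a mean of 2.15% ± 0.203 (SD, n = 6), and 2.49 to 3.17% in bPYX+GFP with a mean of 2.81% ± 0.223. In bPYX+NT3 they were 1.97 to 2.64% with a mean of 2.39% ± 0.282. The naive and bPYX+GFP ranges of this share did not overlap, by a narrow gap, and the share was not tested. let-7d-3p made up 84.3% of the summed 3p reads in naive and 85.5% in bPYX+GFP on average. The sum therefore mostly repeats that strand. The let-7 total also holds few or no reads of the let-7a, let-7d, let-7e and let-7f guides. Per M miRNA reads the summed 3p strands did overlap, at 1569 to 2116 in naive and 1991 to 2455 in bPYX+GFP, while the guides were 7.99% ± 0.207 and 7.38% ± 0.324 of miRNA reads (SD, n = 6). Of the abundant guides, let-7g-5p had a log2 fold change of -0.17 ± 0.06 and let-7i-5p of -0.19 ± 0.09 between bPYX+GFP and naive, with adjusted p of 0.134 and 0.232 in edgeR.

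**Figure D3:**
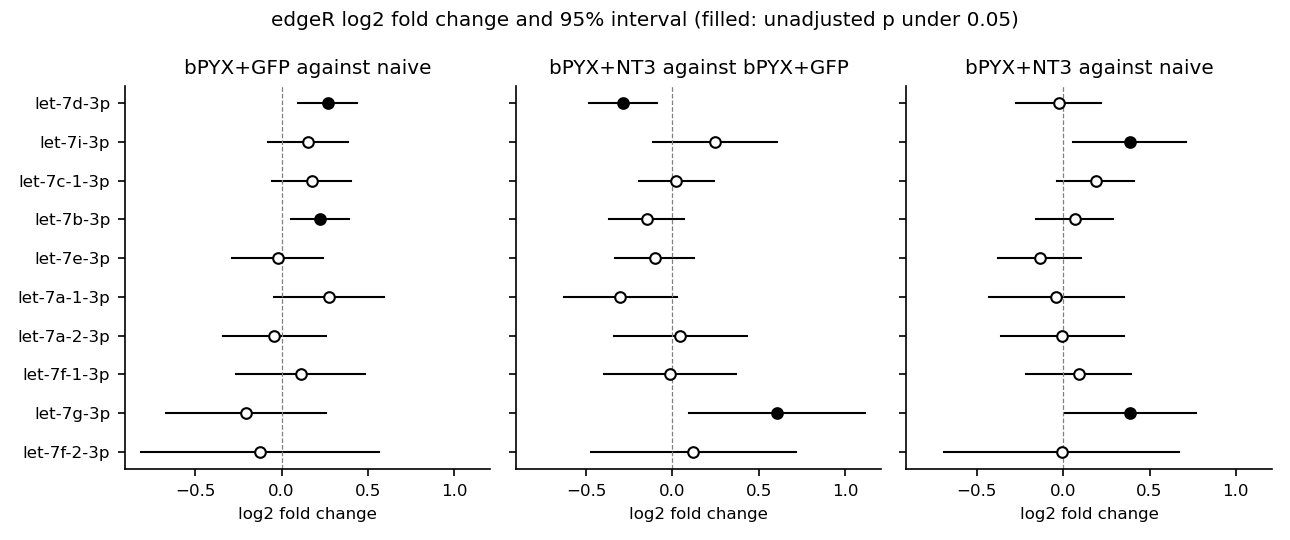
edgeR log2 fold change of each 3p strand with its 95% interval in the 3 comparisons; filled points have an unadjusted p under 0.05. let-7d-3p lies at 0.27 in the first panel and at -0.29 in the second, panels that share the bPYX+GFP libraries, and let-7g-3p at 0.60 in the second.

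Setting bPYX+NT3 beside bPYX+GFP asks what neurotrophin-3, a ligand of the receptor TrkC on muscle afferents, changes after injury. let-7d-3p ranged from 1176 to 1758 CPM with a median of 1564 in bPYX+NT3, and all 6 libraries were below the bPYX+GFP mean of 1826. The log2 fold change was -0.29 ± 0.09 (95% interval -0.48 to -0.09; edgeR adjusted p = 0.217), and its rank by p among the 373 was 10. This comparison shares its bPYX+GFP libraries with the first, so the opposite signs of let-7d-3p in the 2 comparisons are not independent. Against naive, bPYX+NT3 had a log2 fold change of -0.03 ± 0.12 for let-7d-3p (95% interval -0.27 to 0.22). The lowest bPYX+NT3 libraries were replicates 3 and 5, at 1207 and 1176 CPM. Without these 2 the fold change against bPYX+GFP was -0.19 ± 0.06 and still met the unadjusted criterion (edgeR unadjusted p = 0.0125, adjusted p = 0.721). That against naive was 0.11 ± 0.09. Leaving out the 2 lowest libraries, picked after seeing the data, shrinks the difference from bPYX+GFP, so the smaller value decides nothing by itself.

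let-7g-3p ranged from 2.39 to 6.30 CPM in bPYX+GFP, from 4.59 to 6.62 in naive and from 5.17 to 10.4 CPM in bPYX+NT3, with medians of 5.10, 5.48 and 7.25. These are 11 to 49 reads in a library, for which counting error alone gives a coefficient of variation of 19.1%, against 25.2% observed within groups. The log2 fold change was 0.60 ± 0.24 against bPYX+GFP (95% interval 0.09 to 1.11; edgeR adjusted p = 0.433) and 0.39 ± 0.18 against naive (adjusted p = 0.349). The groups overlapped in both comparisons. Without bPYX+NT3 replicates 3 and 5 the values were 0.47 ± 0.25 and 0.29 ± 0.18 (edgeR adjusted p = 0.961 and 0.713), and neither met the unadjusted criterion any longer. Against naive, let-7g-3p met that criterion in 7 of the 21 alternatives, and not with DESeq2, the edgeR likelihood ratio test or the replicate block. Against bPYX+GFP it was met in 17 of 21, and not without bPYX+GFP replicate 2 or 3 or bPYX+NT3 replicate 3.

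let-7i-3p ranged from 88.6 to 128 CPM in naive, from 96.0 to 139 in bPYX+GFP and from 106 to 203 CPM in bPYX+NT3, with medians of 102, 116 and 125. Replicates 3 and 5 of bPYX+NT3, at 203 and 159 CPM, were above all other libraries. Against naive the log2 fold change was 0.38 ± 0.15 (95% interval 0.06 to 0.71; edgeR adjusted p = 0.319), and against bPYX+GFP it was 0.25 ± 0.17 (adjusted p = 0.668). Without those 2 libraries the values were 0.13 ± 0.12 and -0.05 ± 0.12 (edgeR adjusted p = 0.766 and 0.980), and the first no longer met the unadjusted criterion. Leaving out the 2 highest libraries, picked after seeing the data, must lower the difference, so this loss decides nothing by itself. The unadjusted call of let-7i-3p against naive was also lost without naive replicate 2, or without bPYX+NT3 replicate 3 or 5 alone.

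Some other miRNAs were high in these libraries, though not in these alone, and others were low in replicate 3. miR-99a-3p, the 3p strand of the neighbour of let-7c-1, had 65.3 and 84.1 CPM in bPYX+NT3 replicates 3 and 5 against 37.9 to 48.1 in the other 4, and 93.4 CPM in bPYX+GFP replicate 3. The smooth muscle marker miR-145-5p had 1869 and 1662 CPM against 917 to 1317 in the other 4 and 2228 in naive replicate 2, whereas the other smooth muscle marker, miR-143-3p, kept the summed list within 41024 to 59027 CPM in this group and 41686 to 68813 in naive. The myeloid marker miR-223-3p reached 282 CPM in replicate 3 and 135 to 157 in the other 5. In replicate 3 the neuronal miR-96-5p, at 3434 CPM, and the endothelial miR-126a-3p, at 19521 CPM, were the lowest of all 18 libraries. Its miR-182, at 22483 CPM, was the lowest of its group. The neuronal sum of that group had a median of 31110 CPM and its minimum, 25916, in replicate 3. Their part in the let-7d-3p and let-7i-3p values was not tested.

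The remaining members missed the unadjusted threshold in both comparisons with bPYX+NT3. let-7a-1-3p, from the same cluster as let-7d, had a log2 fold change of -0.30 ± 0.15 against bPYX+GFP (95% interval -0.63 to 0.03; edgeR adjusted p = 0.587), and let-7b-3p had -0.15 ± 0.10. let-7c-1-3p had 0.19 ± 0.11 against naive. let-7e-3p had -0.10 ± 0.11 against bPYX+GFP and -0.14 ± 0.11 against naive. The values of let-7a-2-3p, let-7f-1-3p and let-7f-2-3p lay between -0.01 and 0.12, and with 5 to 18 reads in a library the interval of let-7f-2-3p against bPYX+GFP reached from -0.47 to 0.71. The median over the 10 members was 0.00 against bPYX+GFP and 0.03 against naive, beside 0.00 and -0.01 over all 373.

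The ratio of the strands of 1 hairpin does not depend on how libraries are scaled, and could be formed for let-7b, let-7d, let-7g and let-7i. Differences in log2(3p/5p), with 0.5 added to each count, were tested by two-sided exact permutation of the 12 libraries, in 12 tests with Benjamini-Hochberg adjustment. None of the 12 reached an adjusted p of 0.05. The smallest p was that of let-7i for bPYX+NT3 against naive. Its ratio ranged from 2.03 to 2.87 3p reads per 1000 guide reads in naive ganglia and from 2.65 to 5.27 in bPYX+NT3, so the groups overlapped. The difference was 0.55 on the log2 scale, a 1.46-fold higher ratio (exact permutation p = 0.00433, adjusted p = 0.0519). Without bPYX+NT3 replicates 3 and 5 it was 0.34 with an adjusted p of 0.20 by the exact permutation test. For let-7i both strands contributed, since its guide had a log2 fold change of -0.19 ± 0.06 in this comparison (edgeR adjusted p = 0.191).

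let-7g ranged from 0.186 to 0.277 3p reads per 1000 guide reads in naive and from 0.248 to 0.487 in bPYX+NT3, a log2 difference of 0.50 (exact permutation p = 0.0173, adjusted p = 0.104). Against bPYX+GFP, whose range was 0.119 to 0.323, the difference was 0.59 (exact permutation p = 0.0519, adjusted p = 0.162). The let-7d ratio was 79.1 ± 36.3 for naive, 94.2 ± 14.4 for bPYX+GFP and 81.5 ± 18.0 for bPYX+NT3 (SD, n = 6), and its differences of 0.35, -0.22 and 0.13 had exact permutation p from 0.169 to 0.658. The let-7b ratio of 4.58 ± 0.345, 4.96 ± 0.484 and 4.70 ± 0.634 per 1000 had differences from -0.08 to 0.11 on the log2 scale. The let-7d ratio, which rests on 42 to 175 5p reads in a library, varied more within groups than let-7d-3p itself did. The source of this spread was not tested.

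**Figure D4:**
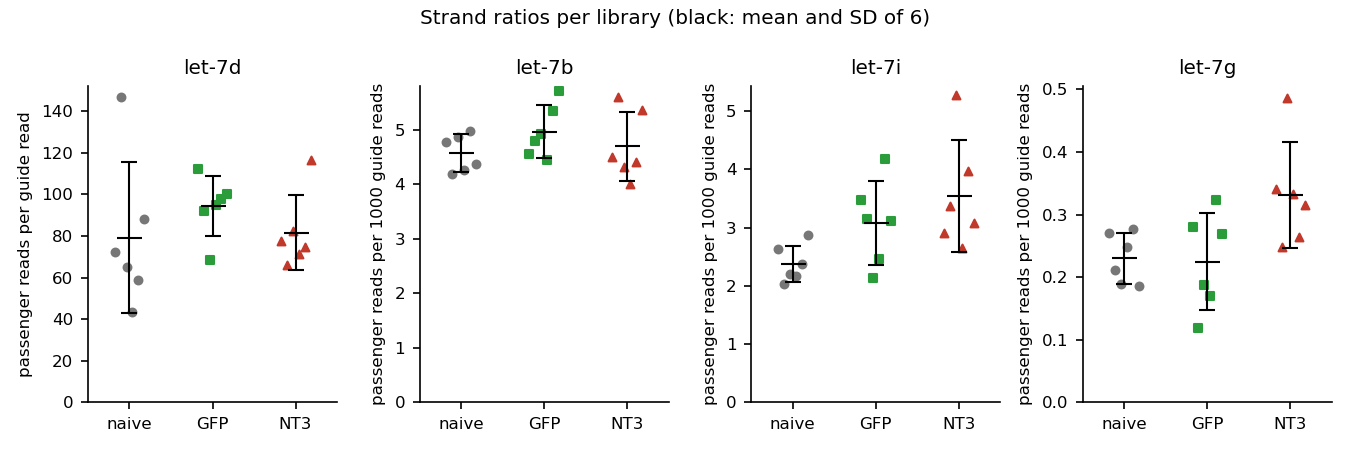
3p reads per 5p read (let-7d) or per 1000 5p reads (let-7b, let-7i, let-7g) in each library by group, with the mean and SD of 6 in black and axes starting at 0. The let-7i ratio has its highest value, 5.27, in bPYX+NT3, where the group mean is 3.54 against 2.38 in naive.

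The let-7a-1, let-7f-1 and let-7d hairpins lie in 1 cluster, and their 3p strands were compared across the 18 libraries on log2 CPM, as were the strands of let-7b, let-7d, let-7g and let-7i, in 7 relations. let-7a-1-3p and let-7d-3p varied together, with Pearson's r of 0.72 (permutation p = 0.00106, adjusted p = 0.00742) and Spearman's rho of 0.61 (permutation p = 0.00837, adjusted p = 0.0586). On deviations from the group means r was 0.62 (permutation p = 0.00679, adjusted p = 0.0475), and it was 0.74 without the 2 libraries farthest from the let-7a-1-3p median. The relations of let-7f-1-3p did not pass the test, with r of 0.23 with let-7d-3p and -0.03 with let-7a-1-3p (permutation p = 0.370 and 0.895, adjusted p = 0.517 and 0.895), and rho of 0.17 and -0.06 (permutation p = 0.489 and 0.813). let-7f-1-3p had 23 to 55 reads in a library, and counting error of 16.1% made up most of its within-group coefficient of variation of 18.4%. The points of all 3 relations share libraries, depth and scaling factors. With scaling by library size only, r of let-7a-1-3p with let-7d-3p was 0.62. Reads of let-7a-1-3p cannot be told by sequence from those of let-7c-2-3p, which lies outside this cluster, beside let-7b. let-7b-3p, also from outside the cluster, had r of 0.675 with let-7d-3p, so the relation is not particular to the cluster.

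**Figure D5:**
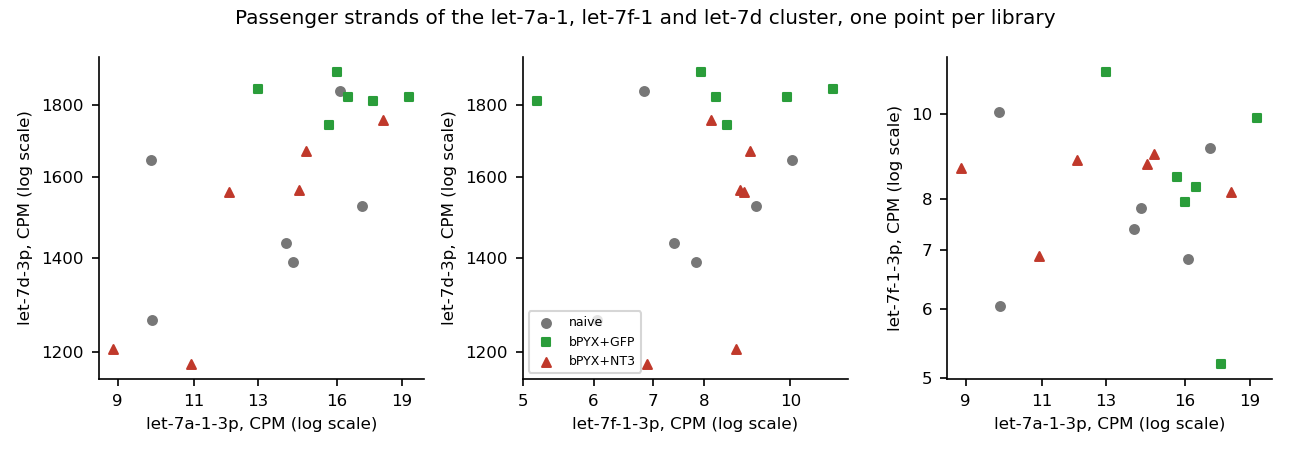
CPM of 2 3p strands of the cluster plotted against each other in each panel, on log axes, with 1 point per library coloured by group. The points of let-7a-1-3p and let-7d-3p lie along a line (r = 0.72), and r is 0.23 and -0.03 in the panels with let-7f-1-3p.

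With TMM scaling, no relation between a 3p strand and its own guide passed the test. Pearson's r between strands was 0.46 for let-7b, 0.24 for let-7d, 0.09 for let-7g and -0.38 for let-7i (permutation p = 0.0551, 0.334, 0.720 and 0.120, with adjusted p of 0.193, 0.517, 0.841 and 0.281). Spearman's rho was 0.46, 0.25, -0.11 and -0.43 (permutation p = 0.0556, 0.309, 0.656 and 0.0771). Without the 2 libraries farthest from the median of the 3p strand, r was 0.41, 0.02, -0.16 and -0.49 in the same order. With scaling by library size only it was 0.57, 0.07, 0.48 and 0.05, values for which no p was computed.

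The tested miRNA whose log2 CPM was most like that of let-7d-3p over the 18 libraries was miR-149-5p, with r of 0.93 both before and after the group means were removed, followed by miR-543-3p (0.83) and miR-455-3p (0.81). The nearest to let-7i-3p were miR-137-3p (0.85), miR-384-5p (0.83) and miR-3068-5p (0.82). let-7a-1-3p was 13th of 372 in its likeness to let-7d-3p and let-7b-3p was 19th. These are the extremes of 372 values and are given as a description.

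The let-7 guides, the strands of miR-98 and those of the miR-99, miR-100 and miR-125 genes beside let-7 genes made 21 entries, of which 19 could be tested. At an adjusted p under 0.05, 1 of the 19 rose in bPYX+GFP against naive and none fell, beside 2.41% of all 373. At an unadjusted p under 0.05 there were 4 of 19, 1 higher and 3 lower, beside 21.2%. It was miR-125a-5p, which lies beside let-7e, at 0.29 ± 0.07 on the log2 scale (edgeR adjusted p = 0.0443), while let-7e-3p had -0.02 ± 0.12 and miR-99b-5p 0.02 ± 0.08. In both comparisons with bPYX+NT3 the count was 0 of 19 by edgeR, with 0 and 3 at an unadjusted p under 0.05, beside 8.58% and 13.7% of all 373. The median log2 fold change of the 19 was -0.06 for bPYX+GFP against naive, -0.07 for bPYX+NT3 against bPYX+GFP and -0.10 for bPYX+NT3 against naive.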

How the data were processed

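Small RNA libraries (NEBNext kit) were sequenced on an Illumina HiSeq. The authors aligned reads to Rnor_5.0 with Bowtie2 and deposited raw read counts per mature miRNA from HTSeq-count (bcl2fastq 1.8.4; other versions, the annotation and the strand setting are not given in the sources used here). Rows that name no miRNA (no feature 3.20%, ambiguous 3.26%, too low quality 31.4%, not aligned 27.2% of entries) were left out of library sizes. No 2 libraries of a group were copies of each other (chi-square per degree of freedom at least 39.6 over 45 pairs). All 18 were used. The study left an outlier out of its small RNA tests. The labels do not name that sample, so every library was kept here, and each was left out in turn only as an alternative.

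Counts were tested with edgeR 4.0.16 in R 4.3.3 (TMM scaling, quasi-likelihood test, 2 groups in a fit, more than 10 counts in at least 6 libraries, Benjamini-Hochberg adjustment). Genes named are all members, the let-7 guides, miR-98, cluster partners, and the 3 miRNAs most like let-7d-3p and let-7i-3p. Members and lists were chosen with earlier results of these data known. CPM used TMM over 18 libraries. A count of 3 corresponds to 0.434 to 0.773 CPM by library size. Correlations used 100000 resamples. Alternatives were other scalings, filters and tests (edgeR likelihood ratio, DESeq2 1.42.0), 1 fit of all groups, a replicate block and leaving out libraries, together for bPYX+NT3 replicates 3 and 5 after seeing the data.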

Additional observations from a re-analysis of the deposited data

Results flagged for a closer look

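In 45 sets of 6 libraries (10 members, 4 strand ratios and the summed 3p reads, each in 3 groups), 1 library stood apart by Dixon's criterion, where chance would give about 2.25. The let-7d ratio of bPYX+NT3 replicate 6 was 116, counted as 3p reads per 5p read, and the next highest library of the group had 82.5. That library had 66 let-7d-5p reads, the lowest count of its group.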

How the results depend on the processing

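let-7d-3p was the only 3p strand whose adjusted call changed under the alternatives run. This was in bPYX+GFP against naive, where the number of members with an adjusted p under 0.05 became 1 with upper-quartile scaling and with DESeq2 (adjusted p = 0.0310 and 0.0334). It was 0 to 1 when single libraries were left out, reaching 1 without naive replicate 6. In the same order, the calls over all 373 miRNAs were 13, 23 and 11, beside 9 in the main test. The unadjusted p of let-7d-3p lay between 0.000255 and 0.0150 in all 21 alternatives of that comparison. It lay between 0.00158 and 0.0160 in the 22 alternatives of bPYX+NT3 against bPYX+GFP. The number of members with an unadjusted p under 0.05 was 2 in each comparison. For bPYX+GFP against naive it became 1 by the edgeR likelihood ratio test and 3 with the replicate block or without naive replicate 2. The totals over all 373 miRNAs were then 61, 76 and 69, beside 79 in the main test. For bPYX+NT3 against bPYX+GFP the member count was 1 with a filter of more than 100 counts, which left let-7g-3p untested. It was also 1 without bPYX+NT3 replicates 3 and 5, and 3 with no filter or the replicate block. With single libraries left out it was 1 to 3, with 3 without bPYX+GFP replicate 5 or bPYX+NT3 replicate 2 or 4. The totals over all miRNAs tested were 26 of 251, 20, 54 of 562, 39, and 24 to 54, beside 32 in the main test. For bPYX+NT3 against naive the member count was 1 with no filter, the likelihood ratio test or DESeq2. It was also 1 with a fit of all 3 groups or the replicate block. It was 3 with library size only or upper-quartile scaling, 0 without bPYX+NT3 replicates 3 and 5, and 0 to 2 with single libraries left out. In this order the totals over all miRNAs tested were 75 of 567, 42, 56, 58, 48, 54, 56, 25, and 32 to 68, beside 51 in the main test. The single libraries that changed the member count to 1 against bPYX+GFP were bPYX+GFP replicates 2 and 3 and bPYX+NT3 replicate 3. Against naive they were naive replicates 1 and 6 and bPYX+NT3 replicates 4, 5 and 6, and the member count there was 0 without naive replicate 2 or bPYX+NT3 replicate 3.

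Log2 fold changes near 0 changed sign. Against naive, bPYX+NT3 gave let-7d-3p 0.030 with library size only, 0.021 with upper-quartile scaling, 0.0053 with the filter of more than 100 counts, 0.11 without replicates 3 and 5, and -0.074 to 0.050 with single libraries left out. let-7a-1-3p gave 0.011, 0.0031 with the 2 scalings, 0.13 without replicates 3 and 5 and -0.13 to 0.052. let-7a-2-3p gave 0.0060 (RLE), 0.048 and 0.037 (the 2 scalings), 0.0059 (no filter), 0.0034 (DESeq2), 0.19 without replicates 3 and 5 and -0.064 to 0.092. let-7f-2-3p gave 0.0030 (RLE), 0.056 and 0.041 (the 2 scalings) and -0.15 to 0.21. Against bPYX+GFP, let-7f-1-3p gave 0.015 and 0.021 (the 2 scalings), 0.0050 (replicate block), 0.0024 without replicates 3 and 5 and -0.13 to 0.082. There, without replicates 3 and 5, let-7f-2-3p gave -0.079, let-7i-3p -0.046 and the let-7i strand ratio -0.010, and single libraries gave let-7a-2-3p -0.035 to 0.11, let-7c-1-3p -0.022 to 0.073 and let-7f-2-3p -0.013 to 0.24. For bPYX+GFP against naive, single libraries gave let-7a-2-3p -0.10 to 0.033, let-7e-3p -0.095 to 0.033, let-7f-1-3p -0.0025 to 0.21 and let-7f-2-3p -0.26 to 0.074. With single libraries left out, strand ratio differences ranged from -0.022 to 0.075 for let-7b and from -0.026 to 0.32 for let-7d in bPYX+NT3 against naive, and from -0.21 to 0.072 for let-7g in bPYX+GFP against naive. The let-7i difference in bPYX+NT3 against naive ranged from 0.42 to 0.62 with single libraries left out. Its adjusted p then ranged from 0.0260, without bPYX+NT3 replicate 4, to 0.156 (exact permutation). Without bPYX+NT3 replicates 3 and 5 the difference was 0.34 with an adjusted p of 0.20. The adjusted p was 0.25 with the replicate block, where exchange within same-numbered pairs leaves few permutations and limits how small p can be. Pearson's r of let-7a-1-3p with let-7f-1-3p was 0.18 and of let-7g-3p with let-7g-5p -0.16 without the 2 farthest libraries, and that of the let-7i strands was 0.051 with library size only. The cause of these shifts was not tested.

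The labels give the groups the same replicate numbers without saying that they mark pairs. Same-numbered libraries deviated together in 7 of 18 pairs (correlation over 0.1, range -0.351 to 0.333), and 6 correlated best with their own number. How many would do so by chance was not computed, so these values do not decide whether the numbers mark pairs. The main tests did not use the numbers as pairs. With the replicate block no member reached an adjusted p of 0.05 (0 in each comparison), and the calls over all 373 miRNAs were 7, 0 and 0. Depth limits let-7f-2-3p, let-7g-3p and let-7c-2-3p, whose counts of 0 to 49 leave intervals or counting error that cover most of their values.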
